A study of Neurospora crassa OR74A with 3 samples.

Results

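The nitrogen assimilation genes described here are 8 genes of Neurospora crassa, chosen by name and identifier from the 9730 genes in the read-count tables: the regulators nit-2 (NCU09068) and nit-4 (NCU08294), the nitrate genes nit-10 (NCU07205), nit-3 (NCU05298) and nit-6 (NCU04720), and the ammonium genes am (NCU01195), gln-1 (NCU06724) and en(am)-2 (NCU01744). All 8 had a row and reads in every library. RNA sequencing of mycelia from 3 strains of this filamentous fungus, with 1 library per strain, gave the messenger RNA levels. Δ3βG, called the parent here, lacks 3 genes for β-glucosidases, enzymes that split cellobiose into glucose. Δ3βGΔncu05853 lacks clp1 (NCU05853, a gene for a cellodextrin transporter-like protein) as well and is called the clp1 deletion. Δ3βGΔcdt2Δncu05853 lacks both clp1 and the cellodextrin transporter gene cdt-2 and is called the double deletion. Every culture spent 16 h in sucrose medium and then 4 h in medium with 2% cellobiose, so the β-glucosidase deletions, the medium and the time are shared by all groups. The sources used here do not give the nitrogen source of these media or the number of clones behind each strain.

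Neurospora takes up nitrate through a transporter and reduces it to nitrite and then to ammonium. Ammonium is joined to carbon skeletons as glutamate by NADP-dependent glutamate dehydrogenase, and as glutamine by glutamine synthetase, while glutamate synthase turns glutamine and oxoglutarate back into glutamate. The GATA factor NIT2 switches on genes for secondary nitrogen sources when preferred ones are scarce, NMR holds NIT2 back, and nitrate genes need in addition the pathway-specific activator NIT4.

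The libraries held 8586155 reads assigned to genes in the parent, 9465639 in the clp1 deletion and 9808610 in the double deletion. clp1 had 4190, 2 and 0 reads in these libraries, and cdt-2 had 1907, 2842 and 9. Of the β-glucosidase genes, which all 3 strains should lack, gh1-1 had 18, 47 and 0 reads, and the others between 5 and 21. Whether the double deletion differs from the clp1 deletion by more than cdt-2 was not tested, and this touches every comparison between them. Of 6 markers of conidia and aerial hyphae, all 6 had reads in every library of these mycelia, and together they took 18.9% of gene reads in the parent, 20.2% in the clp1 deletion and 0.415% in the double deletion. The hydrophobin gene eas alone took 18.7%, 20.0% and 0.305%, and the other 5 markers 0.208%, 0.141% and 0.110%. These 5 went both ways: in the double deletion con-13, fl and con-6 were 61.3-fold, 21.5-fold and 2.88-fold below the parent, while con-8 was 1.89-fold above it, and con-10 stood at 1.37-fold, or at 0.844 on library totals without eas. These shares moved with the comparisons that involve the double deletion, and their part in the results was not tested. Since each strain had 1 library, no test against the spread between replicates was possible, and the 95% intervals cover counting error only. In bulk samples, fewer cells of a type and less RNA per cell cannot be told apart.

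In the double deletion, nit-6 (nitrite reductase) and am (NADP-dependent glutamate dehydrogenase) stood far above both other strains, at 114-fold and 61.7-fold the parent level. nit-3 (nitrate reductase) was 3.52-fold higher. The regulators nit-2 and nit-4 and the glutamine synthetase gene gln-1 lay within 1.5-fold of the parent in both deletion strains on the main scale. In the clp1 deletion, nit-6 alone of the 8 genes passed 2-fold, at 2.21-fold the parent level.

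Levels were first compared between genes within each library, on the authors' deposited RPKM scale (reads corrected for exon length and for depth). In the parent the order ran from gln-1 at 146 RPKM through nit-2 at 40.9, en(am)-2 at 32.2, nit-4 at 9.55, am at 6.85, nit-10 at 3.55 and nit-3 at 1.69 down to nit-6 at 1.64. Neighbours in this order differed beyond counting error except nit-3 and nit-6, whose ratio was 1.03 (95% counting interval 0.709 to 1.49). The clp1 deletion had the same order but for the last places, where nit-6 at 3.71 RPKM stood above nit-3 at 1.76. The double deletion had another order, with am first at 351 RPKM and nit-6 second at 156, ahead of gln-1 at 114. There en(am)-2 stood at 56.3, nit-2 at 32.0, nit-4 at 7.60, nit-10 at 5.24 and nit-3 at 4.95, and nit-10 and nit-3 did not differ beyond counting error (ratio 1.06, interval 0.847 to 1.32). The 8 genes together took 0.105% of gene reads in the parent, 0.0829% in the clp1 deletion and 0.249% in the double deletion. In the parent and in the clp1 deletion 3 of them lay above the median RPKM of the 6545 compared genes, and in the double deletion 5 did.

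**Figure D1:**
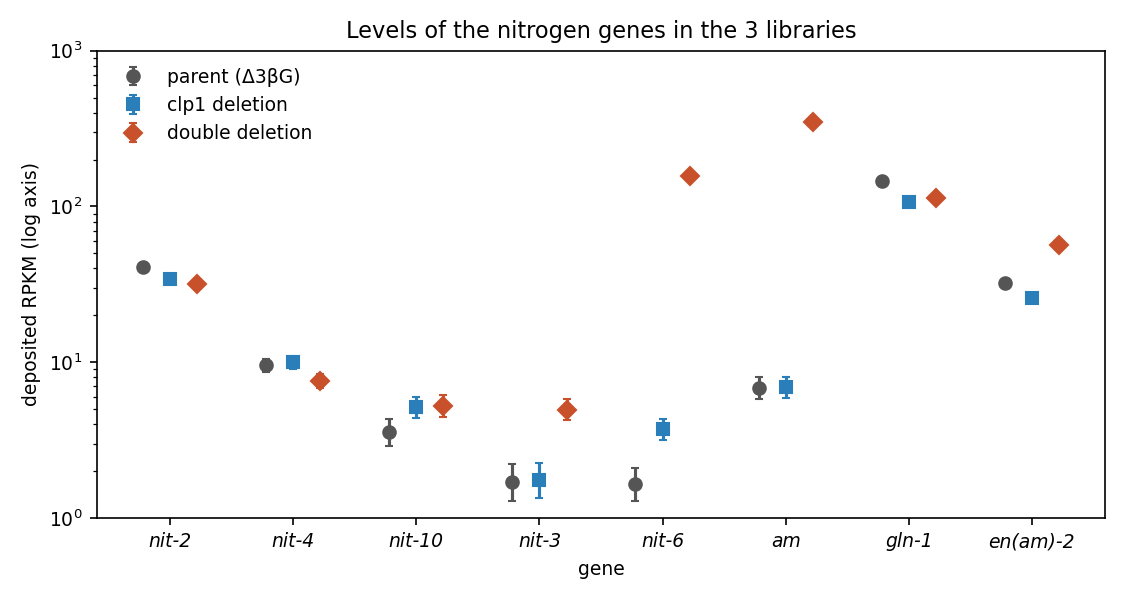
Deposited RPKM (log axis) of the 8 nitrogen genes in the parent (circles), the clp1 deletion (squares) and the double deletion (diamonds), 1 library each, with 95% Poisson intervals of the counts as bars. The diamonds of nit-6 and am, at 156 and 351 RPKM, stand far above the other symbols of these genes.

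Between libraries, reads were scaled to CPM (reads scaled to library size) with TMM factors, which take most genes to be unchanged between libraries. The TMM factors on library totals were 1.10 in the parent, 1.09 in the clp1 deletion and 0.833 in the double deletion. Leaving eas out of the totals moved sizes the other way, with factors of 0.813, 0.800 and 0.997. Whether most genes were unchanged was not tested. Of the 9730 genes, 6545 had a mean of at least 10 CPM and were compared, and a gene was counted as higher or lower when its ratio passed 2-fold. Of the 8 nitrogen genes, 7 met that mean. nit-3 fell just under it, with a mean of 9.96 CPM, and is kept in every count of the 8. The 3 comparisons share libraries, so their values are set side by side and are not independent.

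The regulators came first. The global activator gene nit-2 had 2066 reads in the parent, 1846 in the clp1 deletion and 1678 in the double deletion, or 218, 179 and 205 scaled CPM. Its level in the clp1 deletion was 1.22-fold lower than in the parent (log2 ratio -0.29), and in the double deletion its interval against the parent, 0.881 to 1.004, included 1. nit-4, the activator of nitrate genes, had 428, 477 and 354 reads, or 45.2, 46.3 and 43.3 scaled CPM. All 3 of its ratios had intervals that included 1. The per-length ratio of nit-2 to nmr, which encodes NMR, was 1.32 in the parent (1.23 to 1.43). It was 1.15 in the clp1 deletion (1.06 to 1.24) and 1.04 in the double deletion (0.960 to 1.12). The interval of the clp1 deletion overlaps both others, and those of the parent and the double deletion do not overlap. Such ratios within a library do not depend on how libraries are scaled.

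Among the nitrate genes, the transporter gene nit-10 had 105, 163 and 161 reads, or 11.1, 15.8 and 19.7 scaled CPM in the parent, the clp1 deletion and the double deletion. Against the parent it was 1.43-fold higher in the clp1 deletion (1.11 to 1.84) and 1.78-fold higher in the double deletion (1.38 to 2.29). The nitrate reductase gene nit-3 had 55, 61 and 167 reads, or 5.81, 5.92 and 20.4 scaled CPM. It was at a like level in the first 2 libraries, with a ratio of 1.02 (0.695 to 1.49), and higher in the double deletion, by 3.52-fold over the parent (2.58 to 4.86) and 3.45-fold over the clp1 deletion (2.56 to 4.71).

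The nitrite reductase gene nit-6 differed in each comparison. It had 68 reads in the parent, 164 in the clp1 deletion and 6722 in the double deletion, or 7.19, 15.9 and 823 scaled CPM. The clp1 deletion stood 2.21-fold above the parent (1.66 to 2.98), the double deletion 114-fold above the parent (90.2 to 148) and 51.7-fold above the clp1 deletion (44.3 to 60.7). The double deletion is thus high and the other libraries low, with the clp1 deletion the higher of these. nit-3 and nit-6 encode the enzymes of successive steps, and the per-length ratio of nit-6 to nit-3 was 0.971 in the parent (0.670 to 1.41), 2.11 in the clp1 deletion (1.56 to 2.88) and 31.6 in the double deletion (27.1 to 37.1).

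Among the ammonium genes, am showed the same contrast without the step in the clp1 deletion. am had 149 reads in the parent, 160 in the clp1 deletion and 7933 in the double deletion, or 15.7, 15.5 and 971 scaled CPM. Its ratio between the clp1 deletion and the parent was 0.986 (0.784 to 1.24). The double deletion was 61.7-fold above the parent (52.4 to 73.0) and 62.6-fold above the clp1 deletion (53.5 to 73.6).

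The glutamate synthase gene en(am)-2 had 2384, 2034 and 4333 reads, or 252, 197 and 530 scaled CPM. It was 1.28-fold lower in the clp1 deletion than in the parent, and in the double deletion it was 2.10-fold above the parent (2.00 to 2.21) and 2.69-fold above the clp1 deletion (2.55 to 2.83). The value against the parent depended on the scaling and came to 1.30 on library totals without eas, below 2-fold in 4 of the 7 scalings. Against the clp1 deletion it came to 1.65 on library totals without eas, and was at least 2-fold in 6 of the 7 scalings. The glutamine synthetase gene gln-1 had 3774, 2941 and 3039 reads, or 399, 285 and 372 scaled CPM. On this scale it was highest in the parent, and lower by 1.40-fold in the clp1 deletion and by 1.07-fold in the double deletion. Against the clp1 deletion the double deletion stood at 1.30-fold on this scale and at 0.800 on library totals without eas.

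**Figure D2:**
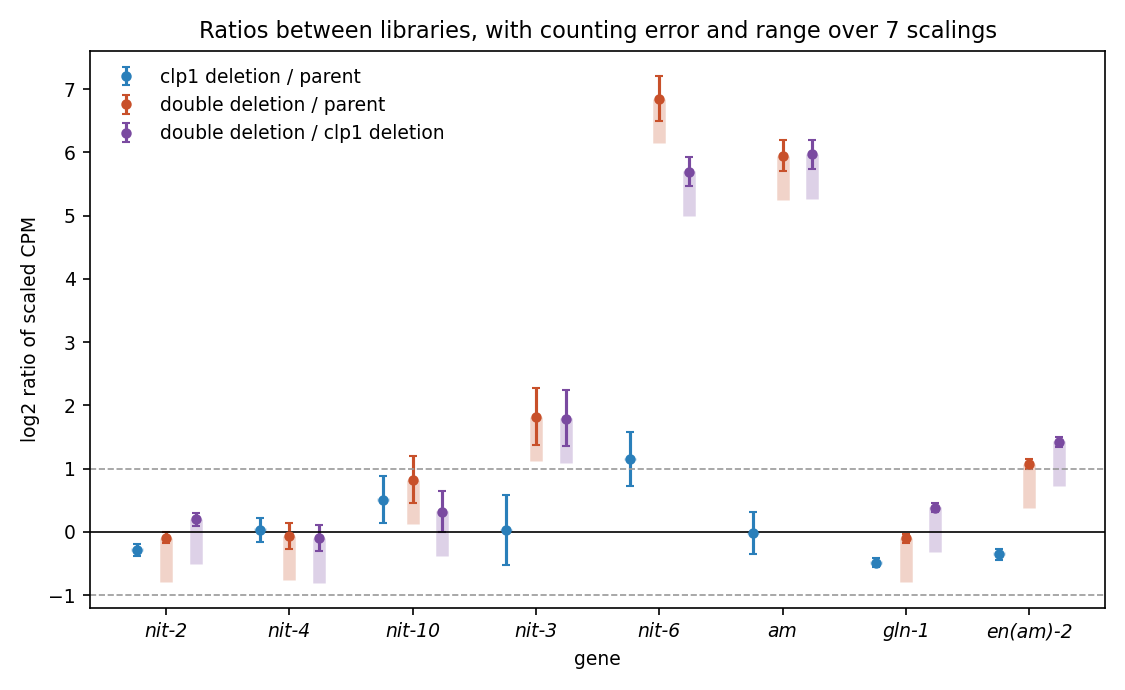
Log2 ratio of scaled CPM for the 8 genes in the 3 comparisons: points are TMM-scaled ratios, thin bars 95% counting intervals, wide pale bars the range over 7 scalings, and dashed lines 2-fold. nit-6 and am lie above 4 in both comparisons of the double deletion under every scaling shown. The points and pale bars of nit-2, nit-4, nit-10 and gln-1 stay within 2-fold. The counting interval of nit-10 in the double deletion against the parent reaches 2.29-fold.

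Set beside all genes, 4 of the 8 (nit-6, am, nit-3 and en(am)-2) were at least 2-fold higher in the double deletion than in the parent, where 19.4% of the 6545 compared genes were, and none of the 8 was at least 2-fold lower, against 15.4%. Their median log2 ratio was 0.95, and that of all compared genes was -0.03. The 8 genes were chosen with earlier results of these data known, so these contrasts describe them and are not a test. Of the compared genes, 52 had a higher ratio than nit-6, and 70 had a higher ratio than am. Against the clp1 deletion, nit-6, am, nit-3 and en(am)-2 were again at least 2-fold higher in the double deletion and none of the 8 lower, where 16.5% and 12.0% of all genes were. In the clp1 deletion against the parent 1 of the 8 was higher, nit-6, and none lower, where 0.550% and 0.657% of all genes were. The median of the 8 was 0.00 there, equal to that of all genes at 2 decimals, and 26 genes had a higher ratio than nit-6.

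The scaling shifted the whole double deletion library. The other scalings moved the median log2 ratio of all genes against the parent by up to -0.70, and the split of 1269 higher and 1010 lower genes became 697 and 2517 on library totals without eas. Against the parent under these scalings nit-6 ranged from 70.6-fold to 114-fold higher, am from 38.0-fold to 61.7-fold and nit-3 from 2.17-fold to 3.52-fold, all 3 past 2-fold under all 7. nit-10 ranged from 1.10-fold to 1.78-fold higher, and nit-2, nit-4 and gln-1 from 1.04-fold to 1.74-fold lower. Against the clp1 deletion the direction of nit-2, nit-10 and gln-1 turned with the scaling.

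**Figure D3:**
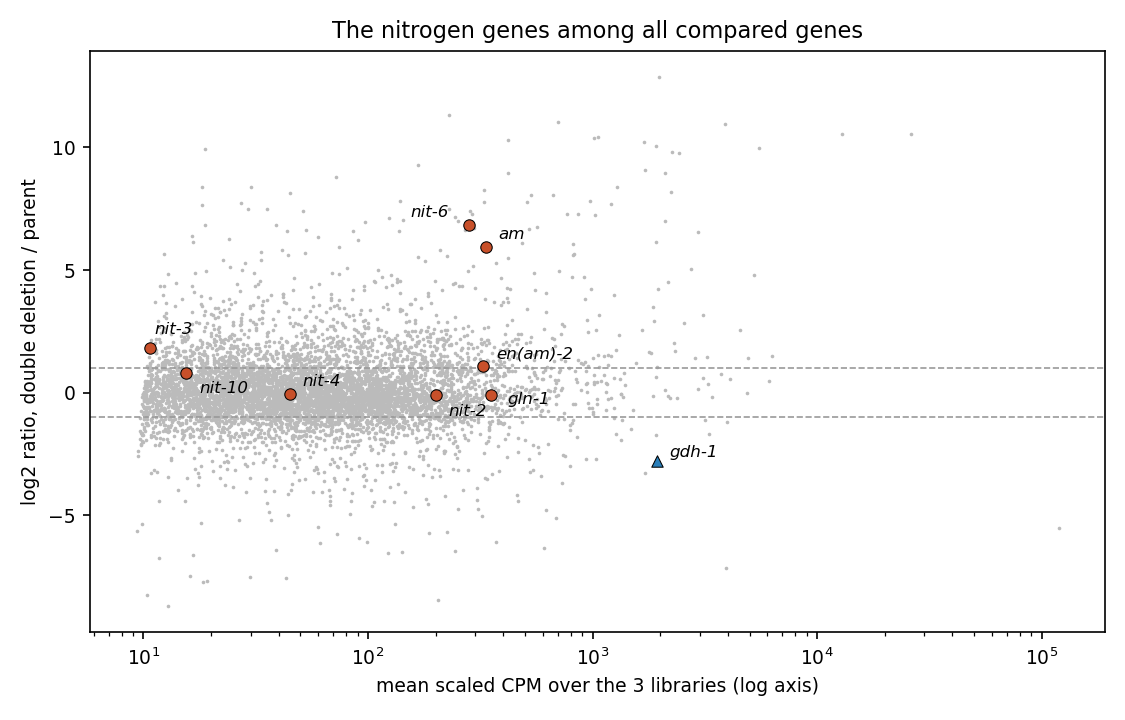
Log2 ratio of the double deletion to the parent against the mean scaled CPM (log axis) for the 6545 compared genes (grey), with the 8 nitrogen genes (circles) and gdh-1 (triangle) marked and dashed lines at 2-fold. nit-6 and am lie near the upper edge of the cloud, at 6.83 and 5.94, and gdh-1 lies in its lower part, at -2.78.

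The other glutamate dehydrogenase gene went the opposite way to am. gdh-1 (NCU00461) encodes the NAD-dependent enzyme, which mainly breaks glutamate down and releases ammonium. It had 29822 reads in the parent, 22409 in the clp1 deletion and 3739 in the double deletion, so that it was high where am was low. The double deletion was 6.89-fold below the parent (6.66 to 7.13) and 4.75-fold below the clp1 deletion (4.59 to 4.92), and the clp1 deletion was 1.45-fold below the parent. The per-length ratio of am to gdh-1 was 0.0109 in the parent (0.00922 to 0.0128), 0.0156 in the clp1 deletion (0.0133 to 0.0182) and 4.63 in the double deletion (4.45 to 4.81). In the first 2 libraries gdh-1 exceeded am by 91.7-fold and 64.2-fold per length, and in the double deletion am exceeded gdh-1.

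The balance within glutamine metabolism also differed between libraries. The second glutamine synthetase gene, gln-2 (NCU04856), had 3413, 3958 and 6291 reads and was 2.13-fold higher in the double deletion than in the parent (2.05 to 2.23), or 1.32-fold on library totals without eas. The per-length ratio of gln-1 to gln-2 was 0.771 in the parent (0.736 to 0.807), 0.518 in the clp1 deletion (0.494 to 0.543) and 0.337 in the double deletion (0.322 to 0.352), 3 intervals that do not overlap. The ratio of en(am)-2 to gln-1 was 0.220 in the parent, 0.240 in the clp1 deletion and 0.496 in the double deletion. am stood at 0.0468 of gln-1 per length in the parent, 0.0644 in the clp1 deletion and 3.09 in the double deletion. Altogether 11 such pairs were computed.

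**Figure D4:**
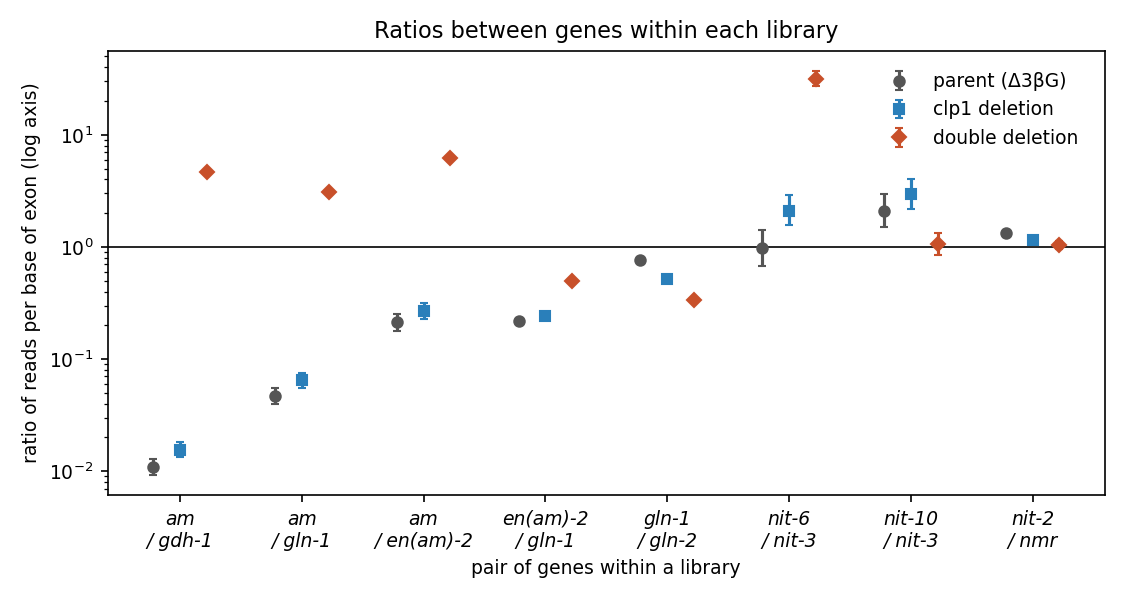
Ratio of reads per base of exon (log axis) between pairs of genes within each library, for 8 of the 11 pairs, with 95% counting intervals as bars; circles are the parent, squares the clp1 deletion and diamonds the double deletion. The ratio of am to gdh-1 crosses 1, from 0.0109 in the parent to 4.63 in the double deletion, and that of nit-6 to nit-3 reaches 31.6.

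A list, also chosen with earlier results of these data known, held 15 further genes of nitrogen metabolism. Of these, 6 were at least 2-fold higher in the double deletion than in the parent and 3 at least 2-fold lower. Of all compared genes, 19.4% were higher and 15.4% lower. The median log2 ratio of the 15 was 0.26, against -0.03 for all compared genes. On library totals and 3 other scalings 2 of the 15 were higher, where 697 to 1002 of the 6545 compared genes were. In the clp1 deletion none of the 15 passed 2-fold against the parent, where 0.550% of all compared genes were higher and 0.657% lower. nmr (NCU04158), the gene of the protein that restrains NIT2, stood at 0.947 of the parent in the clp1 deletion (0.868 to 1.03) and at 1.20 in the double deletion (1.10 to 1.31), or 0.740 there on library totals without eas. The list held none of the genes of the molybdenum cofactor that nitrate reductase needs. The symbols nit-1, nit-7, nit-8 and nit-9 matched no row of the gene table. No symbol searched for ammonium permeases matched either, nor did en(am)-1, uox, su(mtr) or any symbol starting with ure- or put-. Ammonium uptake is therefore not covered here.

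The regulators of amino acid synthesis differed among themselves. cpc-2 (NCU05810), which encodes a WD-repeat protein of cross-pathway control, was 7.43-fold higher in the double deletion than in the parent (6.82 to 8.11), and at least 4.58-fold under all scalings. cpc-1 (NCU04050), the transcription factor of that control, was 2.17-fold higher (2.11 to 2.23) and 1.34-fold on library totals without eas. cpc-3, its protein kinase, and pco-1, the activator of purine breakdown, had intervals against the parent that included 1 in both deletion strains on the main scale. On library totals without eas they stood at 0.623 and 0.592 of the parent in the double deletion.

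Amino acid permease genes and breakdown genes went both ways in the double deletion. Of the amino acid permease genes, pmg (NCU03509), the general permease, was 2.40-fold higher than in the parent (2.23 to 2.57), or 1.48-fold on library totals without eas. mtr (NCU06619), the permease of neutral amino acids, was 6.48-fold lower (5.44 to 7.77). pmb, the permease of basic amino acids, had a ratio of 1.003 (0.826 to 1.22), or 0.619 on library totals without eas. The arginase gene aga-1 (NCU02333) was 4.30-fold lower (3.82 to 4.85), and the ornithine transaminase gene ota 1.67-fold lower, or 2.71-fold on library totals without eas and at least 2-fold in 4 of the 7 scalings. In purine breakdown, the allantoicase gene alc-1 (NCU01816) was 4.34-fold higher (3.82 to 4.94), the allantoinase gene aln-1 (NCU02296) 2.02-fold higher (1.61 to 2.53; 1.24-fold on library totals without eas) and the xanthine dehydrogenase gene xdh-1 1.23-fold higher (0.761 on library totals without eas). In the clp1 deletion alc-1 was 1.70-fold above the parent (1.48 to 1.96) and aln-1 1.45-fold (1.15 to 1.82), while mtr was 1.52-fold below it.

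**Figure D5:**
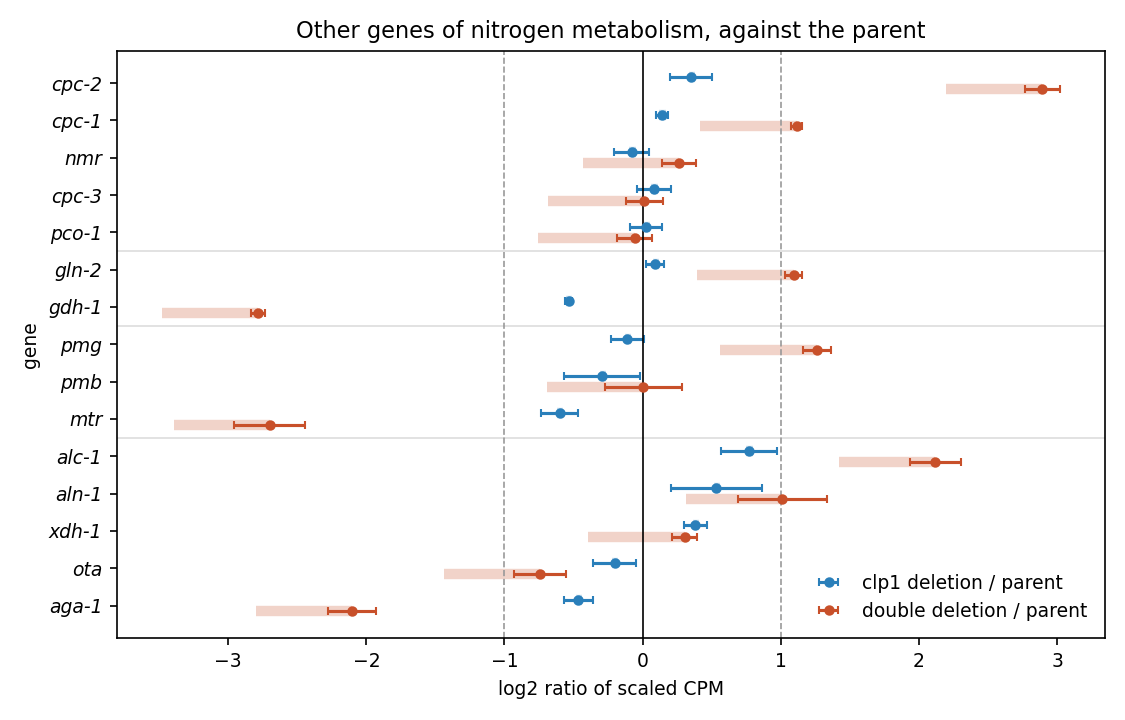
Log2 ratio against the parent of the 15 further genes of nitrogen metabolism in the clp1 deletion and the double deletion. Groups from top to bottom are regulators, glutamate and glutamine, amino acid uptake, and breakdown. Thin bars are 95% counting intervals, wide pale bars the range over 7 scalings and dashed lines 2-fold. cpc-2 and alc-1 stay above 2-fold and gdh-1, mtr and aga-1 below it in the double deletion under all scalings.

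Genes with the profile most like each of the 8 were found by the Euclidean distance between log2 levels over the 3 libraries, each centred on its mean, among 6538 compared genes. nit-6 and am had few such genes, with 8 and 15 within a distance of 0.5, against 3040 for nit-4, 2653 for nit-2, 1802 for gln-1, 1583 for nit-10, 583 for en(am)-2 and 522 for nit-3. The nearest genes to nit-6 were NCU05574 (78, 180 and 7088 reads; distance 0.085), NCU08790 (0.177) and the xylose reductase gene xr (NCU08384; 39, 84 and 3257 reads; 0.181). The nearest to am were NCU08176 (6, 6 and 396 reads, distance 0.211), acw-8 (NCU07277, with 195, 263 and 11511 reads, 0.232) and NCU09505 (127, 113 and 5288 reads, 0.262). With 6 reads in the parent and in the clp1 deletion, the distance of NCU08176 is uncertain, and the order of these genes was not tested. nit-6 and am lay 0.858 from each other and over 3 from each of the other 6 genes. For nit-3 the nearest were the acetyl-CoA synthetase gene acu-5 (NCU06836; 740, 816 and 2253 reads; 0.0148), NCU09910 and NCU06815.

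For the genes that varied less, the nearest genes were NCU06039, NCU04757 and NCU02157 for nit-4, NCU01657, NCU03173 and NCU02269 for nit-2, and eth-1 (NCU02657), NCU01089 and NCU02490 for gln-1. For nit-10 they were pdx-4 (NCU08269), NCU01276 and NCU02585, and for en(am)-2 NCU07293, NCU03074 and NCU02455. Their distances ran from 0.00306 (NCU06039) to 0.0778 (NCU02455). With 3 libraries such a likeness describes 3 values and is common for genes that vary little.

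In the reference gene table none of the 8 genes overlapped another gene, and no 2 of them were neighbours. The log2 ratios of the neighbours between the double deletion and the parent ran from -1.64 for NCU09069, next to nit-2, to 2.07 for NCU04721, next to nit-6. The 2 neighbours of nit-3 stood at 1.20 (NCU05299) and -1.21 (NCU05296). Both neighbours of am (NCU14072 and NCU14073) had no row in the read-count tables and so no ratio. The same held for a neighbour of nit-6 (NCU14165) and a neighbour of gln-1 (NCU15122).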

How the data were processed

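RNA from mycelia of 3 strains was sequenced, 1 library each. The deposited counts of reads per gene were made by the authors with TopHat and HTSeq, per the submitters' processing notes. The sources used here do not give versions, settings, use of strand, build or annotation. Deposited RPKM values rest, as the authors scaled them, on every read of a file: values recomputed on that basis differed by at most 1.93e-08 of the value. They served to compare genes within a library. Reads naming no gene (16.8%, 14.2% and 8.53% of reads in the parent, the clp1 deletion and the double deletion) were left out of library sizes. Reads with several alignments (6.36%, 4.91% and 2.48%) were not assigned to genes, so copies with near-identical sequence may be undercounted.

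TMM factors from edgeR 4.0.16 (R 4.3.3) were 1.10, 1.09 and 0.833. Log2 ratios carry a prior of 0.5 counts. Folds carry none and have exact 95% intervals (Clopper-Pearson, conditional on the summed count; SciPy 1.17.1). A count of 0 was set to a floor of 3 reads, with no fold where both counts were at or under it. With 1 library per strain, intervals cover counting error only. They treat reads as independent molecules, which PCR copies are not, so they may be too narrow. The 5 deleted genes were not compared. Scaling and intervals were tried on simulated counts in which few genes changed, as many up as down. This could not check the scaling of a library where many genes differ, as in the double deletion. Alternatives were library totals, DESeq2 1.42.0 size factors, upper quartiles, all reads, totals without eas or the 50 most abundant genes, a prior of 5 counts, no filter on low counts, and intervals wholly beyond 2-fold.

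The RefSeq gene table (assembly NC12) matched 9729 of 9730 identifiers. The 8 members and the lists were chosen with earlier results of these data known. Named are the members, nmr, gdh-1 and gln-2, list genes of at least 10 CPM that were 2-fold apart in any comparison (at most 8 per list), and the 3 genes nearest to each member. cpc-3, pco-1, pmb, ota, xdh-1 and neighbouring genes were named after their values were seen.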

Additional observations from a re-analysis of the deposited data

How the results depend on the processing

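No paired analysis was possible because each strain had 1 library, and no replicate could be left out. The counts of the 8 nitrogen genes past 2-fold stayed within 1.5 times the main count under all alternatives but 1: with the counting interval wholly beyond 2-fold, 0 of 8 was higher in the clp1 deletion. No called member changed direction. For the list of 15 genes, 2 were higher in the double deletion than in the parent, in place of 6, on library totals, on all reads, without eas and without the 50 most abundant genes. Against the clp1 deletion, 1 was, in place of 4, on these scalings except all reads. Of the 58 compared genes of amino acid synthesis, 16 higher against the parent became 8, 10, 7 and 9 on the same 4 scalings, and 7 lower became 12, 15 and 12 on these except all reads. Against the clp1 deletion 11 higher became 7, 7, 5 and 7, and 6 lower became 10, 14 and 10, or 1 with the interval rule. Of all compared genes against the parent, lower genes numbered 1777 on library totals, 2517 without eas and 1717 without the 50 genes, and higher genes 697 without eas. Against the clp1 deletion the lower genes numbered 1543, 1308, 2460 and 1573 on the 4 scalings, and the higher genes 556 without eas and 1638 with no filter. In the clp1 deletion against the parent, no filter gave 185 higher and 187 lower genes, and the interval rule 13 and 16. The cause of these shifts was not tested, except that no filter adds genes, 9170 in all. Depth limits nit-3 most, with 55 reads in the parent.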

Other observations

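Genes of amino acid synthesis, which draw their nitrogen from glutamate and glutamine, differed in both directions in the double deletion. Of 61 genes with symbols such as arg-, his-, leu- or trp-, some of them for transfer RNA synthetases or transport, 58 had a mean of at least 10 CPM. Of these, 16 were at least 2-fold higher in the double deletion than in the parent and 7 lower, or 27.6% and 12.1%, where 19.4% and 15.4% of all compared genes were. On library totals without eas, 7 of the 58 were higher and 15 lower, where 697 and 2517 of the 6545 compared genes were. This list too was chosen with earlier results of these data known. The highest were trp-3 (NCU08409), the tryptophan synthase gene, at a log2 ratio of 3.62, aro-6 (NCU05548), a gene of the first step of aromatic amino acid synthesis, at 3.08, and cys-2 (NCU04077) at 2.95. thr-4, lys-5, thr-5 and met-8 stood at 2.21, 2.11, 2.06 and 1.79. The lowest was ilv-2 (NCU03608), a gene of branched-chain amino acid synthesis, at -2.82. In the clp1 deletion none of the 58 was 2-fold from the parent, where 0.550% of all compared genes were higher and 0.657% lower. The log2 ratios of the 58 lay between -0.57 and 0.80.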
